A study of Mus musculus with 16 samples.

Results

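The response to voluntary running that is shared by young and old muscle fibres was taken, gene by gene, as the mean of 2 differences: old runners minus old controls, and young runners minus young controls. All 16 libraries of the series entered it, 8 from runners and 8 from controls. Of 18116 gene symbols listed at both ages, the 9354 that lay at least 1 above the lowest value of their table in at least 4 libraries of each age were tested. The RNA was that of myofibers, which are the multinucleated contractile cells of muscle, isolated from the extensor digitorum longus, a fast hindlimb muscle, and stripped of attached mononucleated cells. All mice were male and of the C57BL/6 strain, with no transgene or deletion named. Old runners and old controls were 22 months old, young runners and young controls 4 months old, with 4 libraries in each group, and the runners of both ages had voluntary access to a wheel for 5 weeks. Whether each library is from its own animal is not stated, and the p-values therefore rest on spread from library to library that may be technical.

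A muscle fibre that is made to contract more often changes its RNA on several time scales. Immediate early genes, such as the AP-1 subunits, are switched on within minutes of contraction or stress and their RNAs decay quickly. Repeated running is known to raise genes of oxidative metabolism and to move fast fibres from the fastest myosin heavy chain towards the 2A and 2X forms, and the clock, heat shock and splicing machineries of the fibre also respond to activity.

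Levels are given as RPM, reads of a gene per 1e6 reads assigned in the library, and differences on the deposited log2 scale, on which 1 is a doubling for well-expressed genes and stands for a larger ratio in genes near the detection limit, where the scale is compressed. Libraries held between 30.7 and 67.4 M reads assigned to genes (M, 1e6; median 46.9 M). Markers of muscle fibres were read in every library, and the 10 together held 128351 to 201805 RPM. Fibro-adipogenic progenitor markers, 14 in the list of which 4 could be tested, summed to 22.6 to 92.1 RPM in old controls and 75.7 to 140 in old runners, which overlap, and to 30.4 to 57.2 in young controls and 142 to 341 in young runners, which do not. This sum includes Gsn and Dcn (medians of 18.9 and 13.4 RPM over all libraries), so it is not separate from their rises given below. Smoc2, with the highest median of the list (43.6 RPM), was not called for the effect of running. Only 3 of the 4 tested would have passed the filter on the controls alone. In RNA from whole fibres, fewer cells of a type and less RNA per cell cannot be told apart.

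Of the 9354 genes, 928 (9.92%) differed between runners and controls over both ages at an adjusted p under 0.05 (limma, Benjamini-Hochberg over all genes tested). Of these, 474 (5.07%) were higher in runners and 454 (4.85%) lower. These shares are the background for every count of called list members given below. Most changes were small: the median absolute difference of the called genes was 0.573, and 43 rose and 56 fell by 1 or more. The median of all genes was 0.04, and 54.9% of the genes tested had a positive difference. Quantile normalisation left 40.7% of the calls on the higher side, against 51.1% as deposited, and removing a trend on exon length left 33.6%. Counts depended on single libraries: they ranged from 368 without the young runner Y2ex to 1281 without the young control Yc5, and fell to 432 without the old runner O4ex, 543 without O2ex, 550 without the old control Oc2, 571 without Oc3, 610 without the young control Yc8 and 615 without the young runner Y4ex. The largest rises among genes that passed were in Myh2, Gsn and Dcn, and the largest falls in Sat1, Dnajb1 and Rsrp1.

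**Figure D1:**
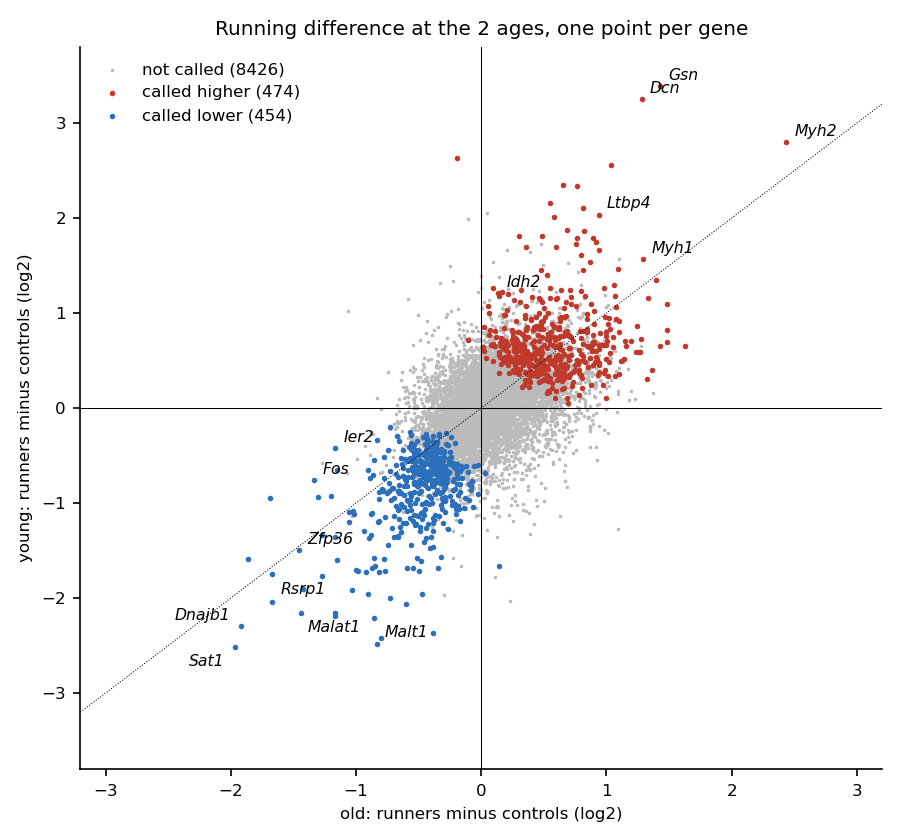
Difference between runners and controls in old fibres (x axis, log2) and in young fibres (y axis, log2) for each of the 9354 genes tested, with the 474 genes called higher in red, the 454 called lower in blue and equal differences on the dotted line. Of the 928 called genes 924 lie in the upper right or lower left field, and Gsn and Dcn lie well above the dotted line.

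The 2 ages share no library, so each age is a separate measurement of the effect of running. Across the 9354 genes the 2 differences had a Pearson correlation of 0.538 and a Spearman correlation of 0.516, given as a description since genes are not independent. Of the 928 called genes 924 moved in the same direction at both ages, against 68.9% of the genes tested. The mean itself favours genes that move alike, so this share is a description. Called genes with an absolute difference of at least 0.3 at both ages in one direction numbered 711, and those with at least 0.5 numbered 323. Among all 9354 genes tested, called or not, the numbers were 1548 and 488. The median absolute difference of called genes was 0.476 in old and 0.668 in young fibres, against 0.198 and 0.260 over all genes tested. It was larger in young than in old fibres for 672 called genes (72.4%), against 60.0% of the genes tested. On a scale common to both ages, obtained with voom from recovered reads, the share of called genes was 66.9%. The share of all genes tested is not given on that scale, so the 66.9% has no background beside it.

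Each table alone gave few calls, and the other age served to read them. Among old fibres 12 genes were called, 7 higher and 5 lower. All 12 moved the same way in young fibres, and 6 of them did so at an unadjusted p under 0.05, against 15.1% of all genes tested. In young fibres 71 genes were called, 21 higher and 50 lower. Of these, 68 moved the same way in old fibres, 45 of them at an unadjusted p under 0.05 (63.4%, against 15.1% of all genes). Calls in the young table alone fell to 0 without Y2ex, Yc7 or Yc8 and to 1 without Y4ex, and calls in the old table alone rose to 295 without Oc1. The mean effect called 850 genes that neither table called alone, and 1 gene was called by both. No gene (0%) was called for a difference between the 2 ages by limma, with a lowest adjusted p of 0.547. In that test 585 genes (6.25% of those tested) had an unadjusted p under 0.05. They included 130 of the genes called for the mean effect (14.0% of the called genes).

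Genes whose runners lay wholly apart from the controls of their own age, at both ages, numbered 71 on the higher side (0.759%) and 124 on the lower side (1.33%). Of these, 70 and 118 were also called.

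Immediate early genes were among the clearest falls. Fos, the AP-1 subunit encoded at chr12:85473890-85477273 (mm10), stood at 2223, 2353, 2453 and 2972 RPM in old controls and at 608, 798, 1107 and 1253 in old runners. In young fibres the values were 1468, 1809, 2724 and 2821 in controls and 956, 1172, 1295 and 1352 in runners. Every runner lay below every control of its age, and the mean difference was −1.05 ± 0.16 (SE; limma adjusted p 0.00152). Zfp36, which encodes a protein that speeds the decay of AU-rich cytokine RNAs, stood at 544 to 707 RPM in old controls against 179 to 220 in old runners. In young fibres it was 384, 482, 1124 and 1208 in controls against 169, 210, 271 and 318 in runners. Its difference was −1.47 ± 0.20 (adjusted p 0.00103), and it was nearly equal at the 2 ages (−1.45 in old and −1.49 in young).

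The windows around the start sites of Fos and Zfp36 are shown as examples of immediate early genes that fell at both ages. They run from 250 bases before to 50 bases after the start, 5′ to 3′ on the strand of the gene, from RefSeq on GRCm38.p6. Capitals mark the core TGACG of the cAMP response element (searched on both strands) and the CArG box, the site of serum response factor. Fos, chr12:85473640-85473939, plus strand, held 2 such cores, and Zfp36, chr7:28379179-28379478, minus strand, held 1 CArG box.
Fos: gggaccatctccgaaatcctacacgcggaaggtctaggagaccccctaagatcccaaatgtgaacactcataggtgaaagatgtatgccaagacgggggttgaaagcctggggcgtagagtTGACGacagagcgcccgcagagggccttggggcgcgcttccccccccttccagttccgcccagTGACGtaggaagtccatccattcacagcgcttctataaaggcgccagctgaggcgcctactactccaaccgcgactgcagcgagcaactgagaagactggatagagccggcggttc
Zfp36: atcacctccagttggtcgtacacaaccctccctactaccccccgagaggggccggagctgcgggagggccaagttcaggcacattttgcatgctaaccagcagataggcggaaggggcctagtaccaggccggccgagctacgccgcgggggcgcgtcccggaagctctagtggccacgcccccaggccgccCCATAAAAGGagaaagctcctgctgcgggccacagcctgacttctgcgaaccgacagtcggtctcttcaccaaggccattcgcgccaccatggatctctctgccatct
Such letters were common. Of the 7263 tested genes with a window, 35.0% held TGACG on either strand, as did 35.9% of the genes called lower and 32.6% of those called higher. The CArG box was in 1.38% of the tested windows and in 1.45% of those of genes called lower. A match is a description of the letters and not evidence of binding.

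Not all early genes fell. Of 9 AP-1 subunits tested, 2 were lower (Fos and Junb) and none higher, with a list median of −0.37 against 0.04 over all genes. By age the list median was −0.68 in old and −0.22 in young fibres. Junb, also an AP-1 subunit, differed by −0.53 ± 0.12 (adjusted p 0.0134). Of 25 other immediate early genes, 7 were lower and 1 higher, with a median of −0.21 (−0.33 in old and −0.07 in young fibres). The 7 were Gadd45b, Zfp36, Gadd45g, Ier2, Zfp36l1, Nr4a2 and Nr4a1, and the riser was Sik1, a kinase of the AMPK family (0.66, adjusted p 0.0496), whose call was lost without any one of 11 libraries. Egr1, a zinc finger factor induced by contraction, differed by 0.07 (adjusted p 0.728), and Jun by −0.47 (adjusted p 0.0579).

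Gadd45b and Gadd45g, small stress-response proteins that bind MAP kinase kinases and cell cycle proteins, both fell. Gadd45g stood at 1026 to 1386 RPM in old controls against 104, 254, 441 and 630 in old runners, and at 815 to 1286 in young controls against 203, 213, 545 and 609 in young runners. Its groups did not overlap at either age and its difference was −1.72 ± 0.28 (adjusted p 0.00226). Gadd45b, which fell by 1.12 ± 0.14 on the log2 scale, had an adjusted p of 0.000686. Ier2, a short-lived nuclear protein, stood at 1188 to 1542 RPM in old controls against 435 to 638 in old runners, whereas the young groups overlapped (671 to 1365 against 584 to 891). Its mean difference was −0.79 ± 0.14 (adjusted p 0.00303), made of −1.17 in old and −0.42 in young fibres.

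Stress genes outside the early lists fell by the largest amounts. Sat1, the enzyme that acetylates spermidine and spermine for breakdown (chrX:155213132-155216449), stood at 281, 300, 365 and 421 RPM in old controls and at 24.3, 38.3, 132 and 209 in old runners. Young controls stood at 451, 528, 543 and 608, and young runners at 35.4, 50.5, 129 and 207. The runners spread widely but all lay below the controls, and the difference was −2.24 ± 0.35 (adjusted p 0.00169). Dnajb1, the HSP40 cochaperone that delivers clients to HSP70 (chr8:83608193-83612653), stood at 449, 465, 545 and 931 RPM in old controls against 81.2, 91.3, 193 and 219 in old runners. In young fibres the controls were at 356, 431, 835 and 1119 and the runners at 80.6, 83.1, 133 and 195. Its difference was −2.11 ± 0.27 (adjusted p 0.000686).

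Dnajb1 was not typical of its family. Of 29 heat shock proteins and cochaperones tested, 3 rose and 2 fell, with a median of 0.12. Over all genes tested 5.07% were higher and 4.85% lower. The other member that fell was Hspe1, the mitochondrial HSP10 (−0.70), whose gene overlaps that of its partner Hspd1. Hspa9 (0.45), Hsp90ab1 (0.38) and Bag3 (0.38) were the members called higher, and none of the 3 was called when the old runner O4ex or the young runner Y2ex was left out. The inducible HSP70 genes Hspa1a and Hspa1b differed by −0.24 (adjusted p 0.393) and −0.27 (adjusted p 0.352).

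Of 28 genes of endoplasmic reticulum folding and stress, 4 were called higher and 3 lower. Ddit3, the CHOP factor of the unfolded protein response, stood at 117 to 157 RPM in old controls against 12.1, 28.0, 38.4 and 86.4 in old runners, and at 91.6 to 205 in young controls against 24.1 to 73.4 in young runners. No runner overlapped a control of its age, and the difference was −1.71 ± 0.25 (adjusted p 0.00152). Atf4, the factor upstream of it (−0.59), and Dnajb9 (−0.58) were also called lower, but each of 10 libraries, when left out, reduced the 3 lower calls to 1. Called higher were Canx, the lectin chaperone calnexin (0.67 ± 0.13, adjusted p 0.00518), Sel1l of the degradation complex (0.78), Hsp90b1 (0.49) and Pdia3 (0.44). Of the 28 genes of the list 22 had a positive difference, against 54.9% of all genes tested, with a list median of 0.20. By age the list median was 0.07 in old and 0.28 in young fibres.

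Of 29 nuclear-retained RNAs and genes of splicing control tested, 12 were lower and none higher, 27 had a negative difference, and the median was −0.43. The 12 became 6 without O4ex or Y2ex, and 7 without O1ex, Oc2, Oc3 or Yc7. Rsrp1, the gene of a protein rich in arginine and serine (chr4:134923592-134927671), stood at 435, 500, 530 and 582 RPM in old controls against 70.6, 142, 161 and 250 in old runners. Young controls stood at 498, 596, 756 and 1149 and young runners at 102, 125, 192 and 267. The groups were fully apart and the difference was −1.86 ± 0.21 (adjusted p 0.000344).

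Malat1, a long noncoding RNA of nuclear speckles, was at 210 to 455 RPM in old controls and 50.3 to 234 in old runners, which overlap by 1 library, and at 524 to 1093 against 69.4 to 312 in young fibres. Its difference was −1.80 ± 0.28 (adjusted p 0.00184). Neat1, the scaffold of paraspeckles, differed by −1.66 (adjusted p 0.0473), a call lost with voom (−1.72, adjusted p 0.0582). The CLK kinases, which phosphorylate splicing factors, fell in Clk1 (−0.85), Clk4 (−0.77) and Clk3 (−0.55), and the splicing factors Srsf7, Srsf5 and Srsf3 differed by −0.82, −0.78 and −0.77. Ccnl1, a cyclin of splicing kinases outside the list, stood at 200 to 296 RPM in old controls against 64.7 to 201 in old runners and at 328 to 601 against 90.5 to 172 in young fibres (−1.35 ± 0.19, adjusted p 0.00104).

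Falls were common among long noncoding genes as a class, which was examined after the values had been seen. Of 222 tested, 58 were lower (26.1%) and 2 higher (0.901%), against 4.26% and 5.29% of 8855 protein-coding genes. Of the lower genes 20 were antisense genes, whose reads cannot be told apart from those of the gene on the other strand, because the libraries keep no strand. With the trend on exon length removed, 40 long noncoding genes were lower and 1 higher. Gas5, a host of snoRNA genes, stood at 23.2 to 25.6 RPM in old controls against 4.24 to 18.6 in old runners and at 25.2 to 48.6 against 7.08 to 18.6 in young fibres, with a difference of −1.11 ± 0.18 (adjusted p 0.0025). Snhg15 (−1.01), Snhg1 (−0.96) and Snhg6 (−0.55), further hosts, were also lower. Taf1d, a protein-coding host of 8 snoRNA genes and a subunit of the RNA polymerase I factor SL1, stood at 18.9 to 40.0 RPM in old controls against 1.79 to 17.2 in old runners, and at 37.4 to 64.3 against 4.76 to 15.7 in young fibres (−1.67 ± 0.21, adjusted p 0.000686).

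Socs3, the feedback inhibitor of STAT3 signalling, stood at 788, 812, 957 and 1042 RPM in old controls against 381, 460, 529 and 564 in old runners. Young controls stood at 868, 1097, 1343 and 1549 and young runners at 257, 267, 487 and 559. All runners lay below all controls of their age, and the difference was −1.18 ± 0.16 (adjusted p 0.00103). Of 22 genes of NF-kB and interleukin 1 signalling, 2 fell and 3 rose, with a median of 0.07, against 4.85% lower and 5.07% higher over all genes tested. The falls were Nfkbiz, an atypical nuclear inhibitor of NF-kB (−1.61 ± 0.29, adjusted p 0.00424), and Malt1, a scaffold protease of NF-kB activation (−1.66 ± 0.28, adjusted p 0.00249). Both rested more on young fibres: Nfkbiz differed by −2.42 in young and −0.80 in old fibres, where runners (6.16 to 32.4 RPM) overlapped controls (25.0 to 40.7). The members called higher were Nfkb2 (0.54), Tnfrsf1b (0.68) and Rela (0.46), all 3 lost without O4ex or Y2ex.

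The circadian clock list held 4 lower and no higher genes of 18 tested, with a median of −0.06. Ciart, a repressor that binds the clock activator, stood at 53.4, 89.7, 91.7 and 118 RPM in old controls against 17.0, 20.8, 42.5 and 54.1 in old runners, and at 50.1, 59.7, 63.0 and 72.0 in young controls against 15.4, 19.6, 20.5 and 24.7 in young runners. The young groups were apart, 1 old runner reached the lowest old control, and the difference was −1.26 ± 0.19 (adjusted p 0.00158). Dbp, an output transcription factor of the clock, differed by −1.06 ± 0.22 (adjusted p 0.00962), Bhlhe41 by −0.76 and Bhlhe40 by −0.32. Per1, Per2, Arntl and Nr1d1 differed by −0.22, −0.07, 0.58 and 0.29 with adjusted p of 0.333, 0.868, 0.0644 and 0.0801. The hour at which tissue was taken is not given in the labels, and its part in these values was not tested. The 4 calls became 2 without O4ex, Oc3 or Y2ex.

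The window of Ciart, the clock gene with the largest fall, is shown in the same orientation, with capitals for the E-box CACGTG, which reads alike on both strands and is the site of the clock activator. It lies at chr3:95882179-95882478 on the minus strand and held 3 copies, whereas 11.4% of tested windows held at least 1.
Ciart: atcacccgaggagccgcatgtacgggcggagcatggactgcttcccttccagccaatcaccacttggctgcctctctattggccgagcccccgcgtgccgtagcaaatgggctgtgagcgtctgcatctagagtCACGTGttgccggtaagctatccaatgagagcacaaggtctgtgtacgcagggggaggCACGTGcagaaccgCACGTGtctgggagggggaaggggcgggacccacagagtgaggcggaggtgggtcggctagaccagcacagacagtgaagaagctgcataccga
Of the called clock genes with a window, Bhlhe41 held 1 E-box and Dbp held none.

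**Figure D2:**
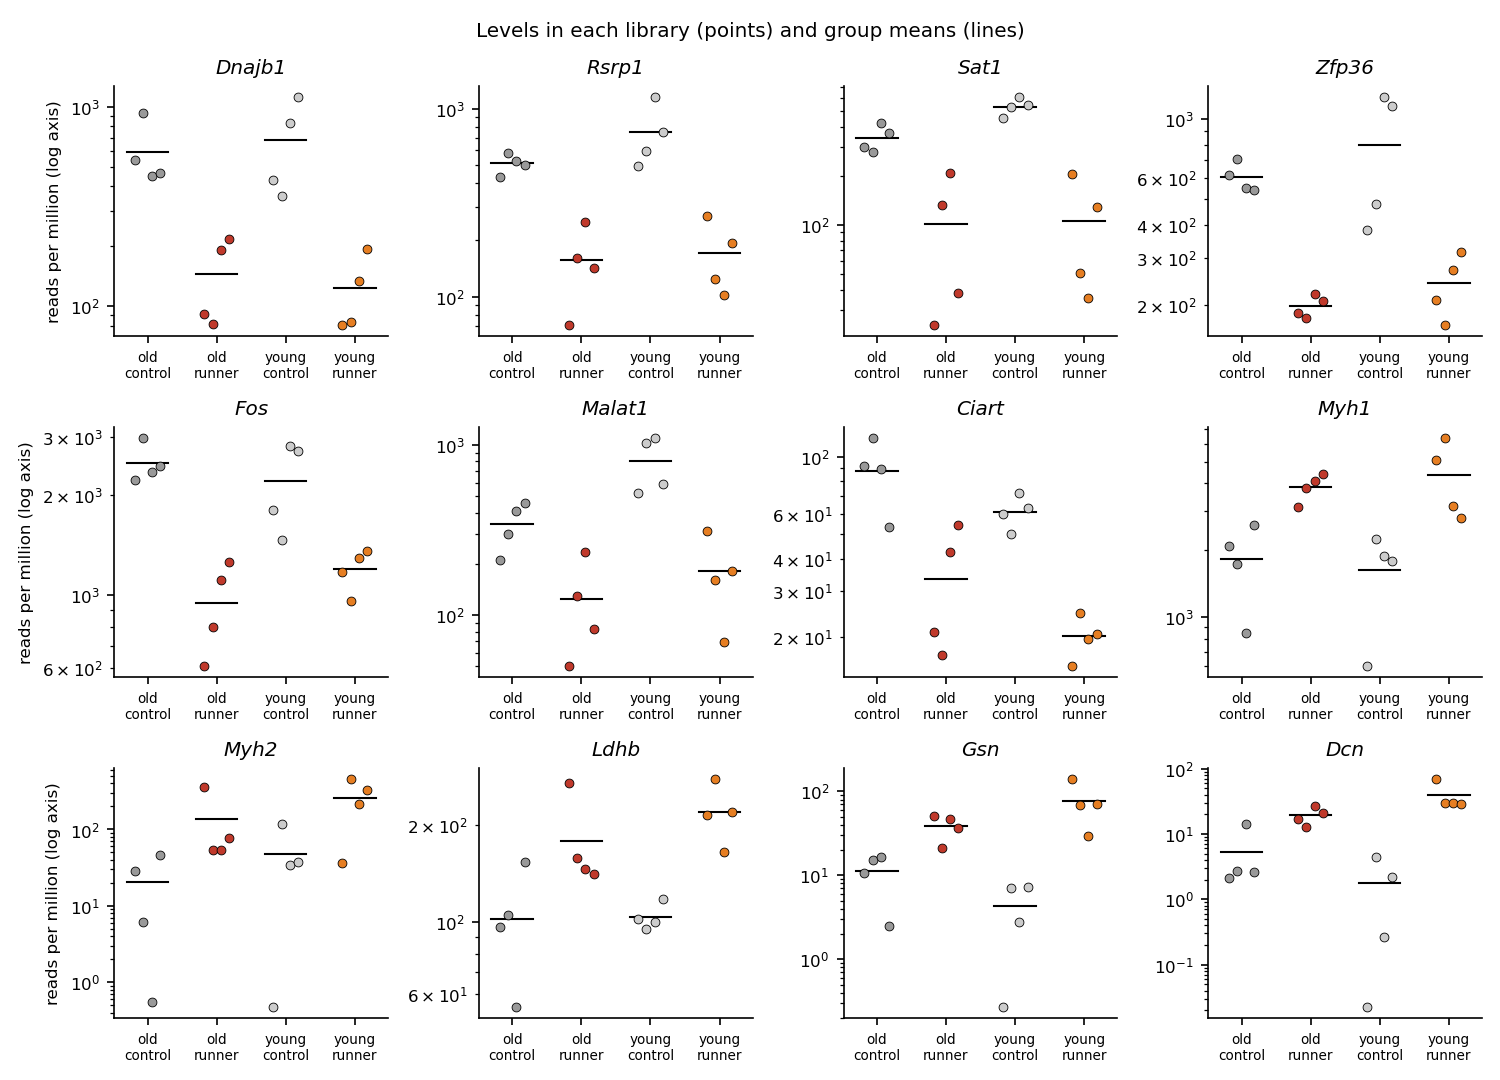
RPM (y axis, log scale, a scale for each gene) in each library (points) and group means (lines) of old controls, old runners, young controls and young runners, for 12 genes. The runners of Dnajb1, Rsrp1, Sat1, Zfp36 and Fos lie below, and those of Myh1 and Gsn above, all controls of their own age. Those of Malat1, Ciart, Myh2, Ldhb and Dcn overlap the controls at 1 age.

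Myh1, the 2X myosin heavy chain (chr11:67200052-67224575), stood at 852, 1734, 2099 and 2597 RPM in old controls against 3132, 3808, 4086 and 4424 in old runners. Young controls stood at 603, 1795, 1883 and 2255 and young runners at 2788, 3156, 5114 and 6373. Every runner lay above every control of its age, and the difference was 1.43 ± 0.27 (adjusted p 0.00493), with 1.29 in old and 1.57 in young fibres. Myh2, the 2A myosin heavy chain of oxidative fast fibres, had the largest mean difference of the named genes (2.62 ± 0.69, adjusted p 0.0267) and the widest spread. It stood at 0.553, 6.09, 28.3 and 46.1 RPM in old controls and at 53.1, 53.8, 76.4 and 363 in old runners, and at 0.474, 34.1, 37.6 and 118 against 36.9, 214, 325 and 453 in young fibres. The old groups were apart and the young groups overlapped. The call was lost with voom (adjusted p 0.0522) and without O1ex, Oc2, Oc3, Y2ex or Y4ex.

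Myh4, the 2B heavy chain that dominates this muscle, stood at 10548 to 29156 RPM in old controls and 18700 to 29658 in old runners, with overlap at both ages. It was called higher (0.80 ± 0.24, adjusted p 0.0421), but the call was lost under 16 of 29 alternatives. Of 13 fast fibre proteins Myh1 and Myh4 were called higher and none lower. Of 13 slow and oxidative fibre proteins 7 passed the filter on low values, and among these Myh2 rose and Tpm3, the slow tropomyosin, fell (−0.82, adjusted p 0.0343), a call lost under 11 of 29 alternatives. In the sarcomere and Z-disc list 3 of 30 were higher, Cmya5 (1.25 ± 0.29, adjusted p 0.0154), Synm (0.90) and Myom2 (0.70), and 1 was lower, Ankrd23, a stretch-responsive ankyrin protein bound to titin (−1.02 ± 0.16, adjusted p 0.0016). The 3 became 1 without O4ex or Y2ex and rose to 7 without Yc5.

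Of 15 genes of the neuromuscular junction tested, 3 were called higher and none lower. A positive difference was seen in 14, against 54.9% of all genes tested, and the list median was 0.41. By age the list median was 0.20 in old and 0.46 in young fibres. The 3 were Musk, the receptor kinase that clusters acetylcholine receptors, Chrna1, the receptor's alpha subunit, and Etv5, a transcription factor of synaptic nuclei. Musk stood at 9.20, 11.5, 15.5 and 20.04 RPM in old controls against 21.8, 32.3, 35.5 and 37.5 in old runners, which do not overlap. In young fibres 9.93, 16.1, 22.2 and 25.4 in controls overlapped 14.9, 26.2, 38.9 and 42.3 in runners, and the mean difference was 0.80 ± 0.18 (adjusted p 0.0144). The 3 calls became 1 without O4ex, Oc3, Y2ex or Y4ex and with the exon length trend removed, and 5 without Y3ex.

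Of 26 enzymes of the citrate cycle and pyruvate entry, 8 were called higher and none lower. A positive difference was seen in 21, against 54.9% of all genes tested, and the list median was 0.21. By age the list median was 0.10 in old and 0.33 in young fibres. Among the 8 called were Idh2, Ogdh, Dlst, Pcx, Pdha1, Sdha and Dlat, with differences from 0.35 (Pdha1) to 0.67 (Idh2). The 8 became 4 without Y2ex, 5 without O1ex, O4ex, Oc3, Y4ex or Yc7, and 4 with the exon length trend removed, and quantile normalisation gave 7 higher and 1 lower. Idh2, the NADP-dependent isocitrate dehydrogenase of mitochondria, differed by 0.67 ± 0.14 (adjusted p 0.00933), made of 1.21 in young and 0.14 in old fibres. Its young groups were apart (72.9 to 104 against 172 to 224) and its old groups overlapped (132 to 287 against 150 to 232), so that its mean describes mainly the young fibres.

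Fatty acid uptake and oxidation held 5 higher and 1 lower genes of 36, with a median of 0.21. By age the list median was 0.01 in old and 0.37 in young fibres, so that it describes mainly the young fibres. Lpl, the lipase that frees fatty acids from circulating triglyceride, stood at 191, 236, 363 and 408 RPM in old controls against 339, 350, 441 and 442 in old runners, and at 116, 165, 202 and 264 against 288, 378, 395 and 501 in young fibres. The young groups were apart and the old groups overlapped (0.85 ± 0.18, adjusted p 0.00938). Acsl1 (0.56), Cpt2 (0.43), Acad9 (0.42) and Hadha (0.41) were the other risers and Acad10 (−0.59) the faller, and leaving out any one of 8 libraries left 3 higher calls. The exon length trend removed left 2. The lower call was lost with voom and without any one of 11 libraries. Of 74 nuclear genes of oxidative phosphorylation none was higher and 2 were lower, Cox7b, a subunit of complex IV (−0.83 ± 0.14, adjusted p 0.00303), and Atp5l (−0.47), with a median of −0.06. None of 12 mitochondrially encoded genes was called by limma or with voom. With the exon length trend removed 1 was called higher, and leaving out 1 library at a time gave 0 to 1. Their spread was wide in young fibres, as mitochondrial reads made up 2.07% in the runner Y1ex and 1.94% in the control Yc5. In the other libraries the share was 0.64% to 1.07%. At an unadjusted p under 0.05 limma gave 2, mt-Rnr2 (0.56, adjusted p 0.105) and mt-Nd3, both higher. Over all 9354 genes tested it gave 2681.

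In glycolysis and glycogen use, 2 of 30 genes were higher and 1 lower, with a median of 0.13. Ldhb, the lactate dehydrogenase subunit of oxidative tissue, stood at 54.8, 96.7, 105 and 153 RPM in old controls against 141, 146, 158 and 268 in old runners, and at 95.7, 100, 103 and 118 in young controls against 165, 214, 218 and 276 in young runners. The highest old control overlapped the old runners, the young groups were apart, and the difference was 0.99 ± 0.18 (adjusted p 0.00387). Pygm, muscle glycogen phosphorylase, rose (0.47) and Pfkfb1 fell (−0.59). The call of Pygm was lost without any one of 11 libraries, and with median centring, quantile normalisation or the exon length trend removed. Ppargc1a, the coactivator of mitochondrial biogenesis, was not called (−0.40 ± 0.15, adjusted p 0.097), nor was Pdk4, the kinase that shuts pyruvate dehydrogenase (0.36 ± 0.17, adjusted p 0.169). Ppargc1a was called lower under 2 and Pdk4 higher under 1 of 29 alternatives. Mfn2 and Opa1, fusion proteins of the mitochondrial membranes, were higher (0.68 and 0.62), and Mff, which recruits the fission machinery, was lower (−0.45). Prkaa1, a catalytic subunit of the energy sensor AMPK, stood at 7.23 to 17.8 RPM in old controls against 19.7 to 32.4 in old runners and at 5.48 to 20.5 against 20.99 to 41.5 in young fibres (0.91 ± 0.19, adjusted p 0.0103).

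**Figure D3:**
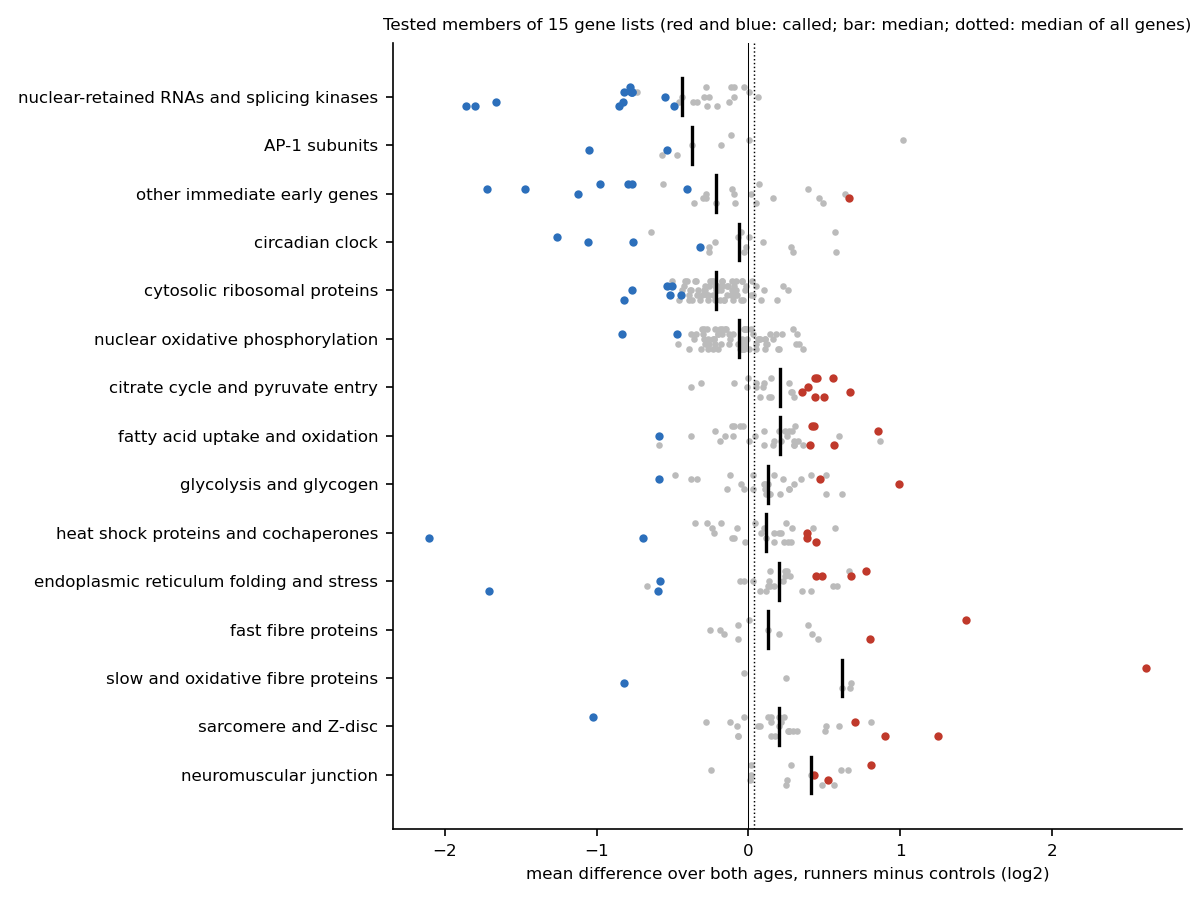
Mean difference over both ages (x axis, log2) of the tested members of 15 gene lists, with members called higher in red, members called lower in blue, others in grey, the list median as a bar and the median of all genes as a dotted line. The medians run from −0.43 for nuclear-retained RNAs and splicing kinases to 0.61 for slow and oxidative fibre proteins, of which 7 of 13 passed the filter on low values.

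Of 75 cytosolic ribosomal protein genes 66 had a negative difference, with a median of −0.21, but 6 were called lower and none higher. Among them were Rpl10a, Rpl3, Rps24, Rps3a1 and Rpl17, and the number called lower ranged from 2 without O4ex or Y2ex to 21 without Yc5 and 17 without Y3ex. These genes have many processed copies in the genome and short exons, and reads may have been split among copies. Of 35 proteasome genes 3 were higher and 2 lower (median 0.03), against 5.07% higher and 4.85% lower over all genes tested. Of 27 autophagy and lysosome genes 3 were higher (median −0.03), among them the protease Ctsb (0.47 ± 0.10, adjusted p 0.0111). Of 15 atrophy ligases and FOXO genes none was called by limma or with voom. By limma 5 of the 15 had an unadjusted p under 0.05, against 2681 of all 9354 genes tested. The 3 autophagy calls became 1 without O1ex, O2ex, O4ex, Oc2, Oc3, Y2ex or Y4ex, and quantile normalisation gave 1 higher and 3 lower. In the atrophy list Klf15, a glucocorticoid-induced factor, had the smallest p (−0.33, adjusted p 0.0537). It was called lower under 9 of 29 alternatives, among them median centring and quantile normalisation. Tsc2, which with Tsc1 restrains mTORC1, rose (0.84 ± 0.16, adjusted p 0.00548), from 44.3 to 76.5 RPM in old controls to 110 to 141 in old runners, which do not overlap, and from 38.8 to 110 to 100 to 134 in young fibres, which do. Igf1r fell (−0.53, adjusted p 0.0437), a call lost under 17 of 28 alternatives.

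Some of the largest rises were in genes of connective tissue cells, read at low levels. Gsn, gelsolin, an actin-severing protein abundant in fibro-adipogenic progenitors (chr2:35256380-35307892), stood at 2.47, 10.7, 15.4 and 16.6 RPM in old controls against 21.2, 36.9, 46.9 and 51.3 in old runners. Young controls stood at 0.271, 2.76, 7.04 and 7.34 and young runners at 29.4, 69.5, 70.8 and 139. All runners lay above all controls of their age, with a difference of 2.41 ± 0.31 (adjusted p 0.000686), or 3.32 with voom. Dcn, the matrix proteoglycan decorin (chr10:97479609-97518143), stood at 2.14, 2.62, 2.71 and 14.0 RPM in old controls against 12.8, 17.2, 20.98 and 26.5 in old runners, and at 0.0226, 0.261, 2.22 and 4.50 against 28.9, 29.5, 30.0 and 68.3 in young fibres. The control Oc3 was the only control within the range of the runners of its age in RPM, and on the deposited scale the groups were apart. The difference was 2.27 ± 0.26 (adjusted p 0.000344) and reached 4.25 with voom (adjusted p 0.0207).

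Of 37 collagens and matrix genes only 11 passed the filter on low values, and 5 were called higher: Col20a1, Col3a1, Thbs1, Sparc and Cilp. A gene near its detection limit in controls could pass only if it was higher in runners, so these counts do not describe the list. Sparc, a collagen-binding matrix protein, stood at 24.8 to 47.5 RPM in old controls and 27.4 to 46.6 in old runners, which overlap fully, and at 12.3 to 21.8 against 27.9 to 58.1 in young fibres, which do not (0.70 ± 0.15, adjusted p 0.00961). Cilp, a cartilage matrix protein, differed by −0.19 in old and 2.64 in young fibres (mean 1.22 ± 0.33, adjusted p 0.0299). Ltbp4, which stores latent TGF-beta in the matrix, stood at 0.0265 to 5.42 RPM in old controls against 5.80 to 13.0 in old runners and at 0 to 3.13 against 7.59 to 15.4 in young fibres. Its difference of 1.49 ± 0.24 (adjusted p 0.00236) became 4.40 with voom. With voom Col3a1 differed by 5.26 (adjusted p 0.127), Thbs1 by 4.53 (adjusted p 0.228) and Cilp by 1.80 (adjusted p 0.287), and these 3 were then not called.

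Markers of other cell types were present at low levels and moved with some of these genes. The summed endothelial markers, of which 10 of 16 could be tested, stood at 19.0 to 166 RPM in old controls and 38.5 to 144 in old runners, and at 12.1 to 34.1 in young controls and 39.8 to 183 in young runners. They overlapped in old and were apart in young fibres. Flt1 was the called member (0.96 ± 0.30, adjusted p 0.0495), and it lost the call under 22 of 27 alternatives, voom among them (adjusted p 0.134). Of 11 pericyte and smooth muscle markers 3 could be tested. The sum of the list stood at 36.5 to 205 against 104 to 283 in old and 62.3 to 199 against 146 to 319 in young fibres, with overlap at both ages. It was mostly Abcc9, with a median of 160 RPM over all libraries, against 11.8 for Rgs5 and 2.21 for Mylk. Of 13 macrophage markers 3 could be tested and none was called. Their sums were 59.8 to 91.7 against 53.5 to 112 in old and 45.2 to 125 against 69.4 to 134 in young fibres. Lyz2 of this list was called higher under 6 of 23 alternatives. Of 7 neutrophil markers only 1, Csf3r, was listed at both ages, and it did not exceed 0.323 RPM. The part of these cells in the rises of Gsn, Dcn and the matrix genes was not tested.

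**Figure D4:**
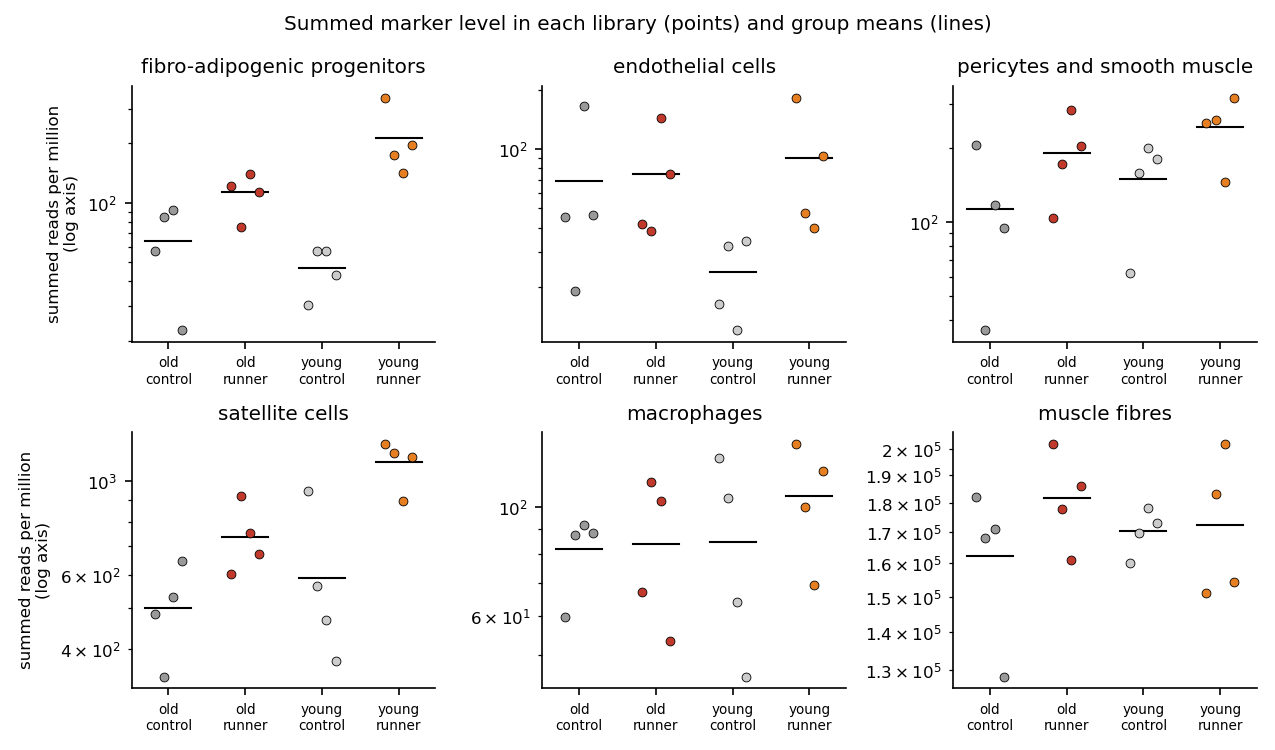
Summed RPM (y axis, log scale) of the marker genes of 6 cell types in each library (points) and group means (lines) of old controls, old runners, young controls and young runners. Fibro-adipogenic progenitor and endothelial sums of young runners lie above those of all young controls, and macrophage sums overlap at both ages.

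Myod1, the myogenic determination factor, was the called member of the satellite cell list, of which 5 of 11 could be tested. It stood at 168, 179, 303 and 387 RPM in old controls against 358, 368, 424 and 637 in old runners, and at 104, 141, 265 and 727 in young controls against 578, 731, 843 and 888 in young runners. The groups overlapped at both ages, and the difference was 1.33 ± 0.30 (adjusted p 0.0139). Myod1 had a median of 377 RPM over all libraries. Pax7 and Myf5, of the same list, did not pass the filter on low values. Pax7 had a read in 7 libraries and reached 0.163 RPM, and Myf5 had a median of 1.28 RPM. The part of satellite cells in the rise of Myod1 was not tested. Among chemokines and muscle cytokines, 17 of 28 could be tested, and 3 were higher (Ccl2, Cxcl12 and Tgfb2) and 3 lower (Vegfa, Il15 and Ccl25). Only 13 of the 17 would have passed the filter on the controls alone, so these counts do not describe the list. The lower calls became 1 without any one of 11 libraries, and the higher calls 1 without Y2ex or Y4ex and 5 without Yc5. Ccl2, which attracts monocytes, stood at 0.318 to 5.25 RPM in old controls against 3.49 to 14.9 in old runners, which overlap, and at 0.229 to 1.06 against 5.25 to 30.1 in young fibres, which do not. Its difference of 1.34 ± 0.25 (adjusted p 0.00443) became 3.17 with voom, where it was not called (adjusted p 0.0656).

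Several other genes also differed, most of them with runners and controls apart at both ages. Flii, an actin-binding gelsolin relative, stood at 48.7, 59.3, 63.2 and 63.5 RPM in old controls against 91.4, 92.2, 103 and 104 in old runners, and at 52.2, 64.8, 73.9 and 76.0 against 80.4, 86.8, 95.0 and 102 in young fibres. No runner overlapped a control of its age, and the difference was 0.64 ± 0.10 (adjusted p 0.0016). Ncoa4, the receptor that carries ferritin to the lysosome, was also apart at both ages (0.68 ± 0.10, adjusted p 0.0016). On the lower side Tmem55b, a lysosomal phosphatase, stood at 32.5 to 43.2 RPM in old controls against 19.6 to 27.1 in old runners and at 53.8 to 64.0 against 21.9 to 25.7 in young fibres (−0.79 ± 0.09, adjusted p 0.000344). Nmrk2, a muscle kinase of the NAD salvage pathway, stood at 318 to 625 RPM in old controls against 150 to 239 in old runners and at 303 to 593 against 139 to 250 in young fibres (−1.13 ± 0.17, adjusted p 0.00169). Id2, an inhibitor of basic helix-loop-helix factors, fell by 1.11 on the log2 scale (adjusted p 0.00748), with overlap in old fibres.

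Calls depended on the length of the gene's exons. Genes called higher had a median exon length of 5502 bases and genes called lower of 3174, against 4503.5 over the tested genes with a length. In the shortest of 5 equal bins of these genes 1.31% were higher and 8.44% lower, and in the longest bin 6.59% were higher and 2.78% lower. Across genes the Spearman correlation of the mean difference with exon length was 0.246, and it was 0.341 for the old and 0.119 for the young difference, given as a description. Removing the trend left 667 calls, 224 higher and 443 lower, of which 558 were among the 928. The part of exon length in the results above was not tested beyond this.

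**Figure D5:**
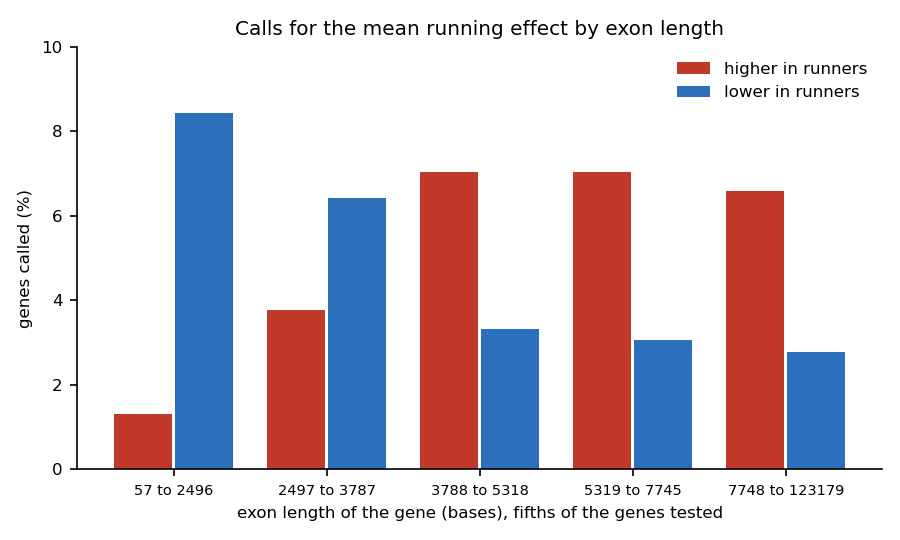
Share of genes called higher (red) and lower (blue) in runners (y axis, percent of genes) in 5 bins of the tested genes by exon length (x axis, bases). The share called lower falls from 8.44% in the shortest to 2.78% in the longest bin, and the share called higher is lowest, at 1.31%, in the shortest.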

How the data were processed

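RNA of isolated myofibers was sequenced after low-input amplification with a SMART-Seq v4 kit, in libraries that keep no strand. The submitters' processing notes name Trim Galore, STAR, Subread's featureCounts, DESeq2 and the mm10 build. Versions and gene models are not given in the sources used here. Deposited were log2 values per gene in 1 table for each age, normalized separately by the authors, with floors of 7.69 (old) and 6.73 (young). All of 165976 low values tested gave whole reads within 0.02 when the scale was undone, and RPM (reads per 1e6 assigned reads) and voom used these reads. Columns were matched to samples by title where the name allowed and otherwise by group.

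The 2 differences were estimated in limma 3.58.1 (R 4.3.3) on the log2 values, with a trend in the prior variance and 12 residual degrees of freedom, and averaged. Genes had to lie at least 1 above the floor in 4 libraries of each age. The Benjamini-Hochberg adjustment ran over all 9354 genes, with a threshold of 0.05. Steps were tested on simulated data. Of 18116 shared symbols 17474 (96.5%) matched GENCODE M21, and 18 symbols had been turned into dates. No 2 libraries of a group agreed within sampling noise. Genes were named by size of the difference (12 per direction), smallest p (5 per direction) and 2 per list, and genes named beyond these were chosen after their values were seen. The members and lists were chosen with earlier results of these data known. Alternatives changed the filter, scaling, variance model, library weights, exon length trend and each library in turn. Python 3.11.15 was used for the tables and plots.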

Additional observations from a re-analysis of the deposited data

Results flagged for a closer look

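Of 348 groups of 4 libraries examined for the named genes, 15 held 1 library far from the other 3, by Dixon's test at its 95% critical value; chance alone flags about 1 in 20 groups. The test was not run on RPM, in which some flagged libraries, such as those of Flii, lie close to their neighbours. Values are given in RPM. Among old controls Oc3 was high for Dcn (14.0, others 2.14 to 2.71) and Col3a1 (6.75, others 0 to 0.0424). It was low for Ncoa4 (12.4, others 15.6 to 17.8). Oc2 was high for Fos (2972, others 2223 to 2453). Oc1 was high for Cmya5 (709, others 292 to 351) and Oc4 was low for Dbp (52.4, others 107 to 115). Among young controls Yc4 was low for Gtf3c1 (2.41, others 23.4 to 27.9) and Zdhhc5 (39.6, others 115 to 121), Yc7 was low for Ccl2 (0.229) and Yc8 was high for Cxcl12 (2.43, others 0.0163 to 0.0226). Among old runners O3ex was low for Flii (91.4, others 92.2 to 104). Among young runners Y1ex was low for Flii (80.4, others 86.8 to 102) and high for Lyz2 (5.02). Y3ex was low for Prkaa1 (20.99) and Zfp931 (2.56, others 9.22 to 12).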

How the results depend on the processing

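The count of 928 genes ranged from 733 to 949 over other filters, scalings and variance models without weights. Library weights gave 2543 genes (1470 higher, 1073 lower) and 27 genes that differed between ages. A minimum difference of 0.5 left 5 (2 higher, 3 lower). Removing the exon length trend left 224 higher. A setting chosen after seeing the data, without the library with the fewest genes in each group, gave 1484 (941 higher, 63.4%) and 75 that differed between ages. Leaving out 1 library at a time gave 368 to 1281 genes, 152 to 660 higher and 216 to 621 lower, and 0 to 5 that differed between ages (1 without Y4ex, 5 without Yc4). The share of old calls moving the same way in young fibres was 81.8% to 100%, and that of young calls in old fibres 0% (without Y4ex, which left 1 call) to 100%. The cause was not tested. Of 77 called genes that the naming rule chose, 60 lost the call nowhere or only with the minimum difference of 0.5, and 17 lost it under other alternatives. Genes named beyond the rule were not followed in this way. Cd3e, not called, ranged from −0.037 (without Oc4) to 0.252 (without Oc2) and was −0.056 without the libraries with the fewest genes. No paired analysis was possible because the titles of runners and controls share fewer than 2 replicate numbers at each age, so the planned replicate block was not run. Depth limits genes near the floor, whose log2 differences are compressed.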

Other observations

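Genes that hold a snoRNA gene on their own strand were looked at after the values of Gas5 and Taf1d had been seen. Of 12 long noncoding hosts tested, 5 were lower in runners (41.7%) and none higher by limma. Among all 222 long noncoding genes tested 26.1% were lower and 0.901% higher. Of 170 protein-coding hosts 16 were higher (9.41%) and 12 lower (7.06%). Among 8685 protein-coding genes without a snoRNA gene 5.20% were higher and 4.20% lower.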
